A study of Mus musculus with 3 samples.

Results

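Oxidative phosphorylation transcripts were counted in single cells of the mouse iridocorneal angle and limbus, a region of the eye where fluid drains through the trabecular meshwork (TM) into the vessel named Schlemm's canal (SC). The members were chosen by symbol alone, as the mitochondrially encoded subunits of complexes I, III, IV and V and the nuclear Nduf, Uqcr, Cox4 to Cox8 and Atp5 families. These patterns matched 93 of the 31053 features counted, of which 13 are encoded in mitochondrial DNA and 80 in the nucleus. The nuclear members carry 79 symbols, since *Atp5o* stands for 2 features, and by name 37 belong to complex I, 8 to complex III, 18 to complex IV and 17 to complex V. *Ndufa4* and its paralogue *Ndufa4l2* are counted under complex I here because of their names, although the *Ndufa4* protein is now placed with complex IV.

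Control mice carried *Angpt1* flox/flox alleles without Cre (2 pools, control replicates 1 and 2), and *Angpt1*ΔNC mice were *Angpt1* flox/flox;Wnt1Cre+ (1 pool), so the floxed alleles are shared by both groups. *Wnt1*-Cre deletes in the neural crest lineage, which includes TM, stromal and pericyte lineages but not endothelium or epithelium. All mice were 6 weeks old, on a mixed strain background crossed onto ICR albino, and each pool held the eyes of 2 to 3 mice of both sexes. With a single *Angpt1*ΔNC pool, a difference between genotypes cannot be told apart from a difference between pools, and p-values measure only the spread between the control pools.

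After the authors' filters 9076, 10160 and 6772 cells were kept in control replicate 1, control replicate 2 and *Angpt1*ΔNC, with medians of 6329.5, 6393.5 and 7444 UMIs (unique molecular identifiers, each standing for 1 captured transcript). Between 13 and 25 cell barcodes were shared by each pair of libraries. *Angpt1* checked the labels: summed over TM1 to TM11 it had 2457 and 2615 UMIs in the controls and 14 in *Angpt1*ΔNC, and over clusters 19 to 21 it had 258, 246 and 0. Cells typed as male by their transcripts made up 69.7%, 72.1% and 29.4% of the 3 libraries, so that the pools also differed in sex. Removal of cells with over 10% mitochondrial UMIs, which had been applied before deposit, took 5.39% and 5.68% of the deep called cells of the controls and 12.04% of those of *Angpt1*ΔNC, and this truncates every mitochondrial level below.

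Oxidative phosphorylation passes electrons from NADH through complexes I, III and IV of the inner mitochondrial membrane to oxygen, and the proton gradient made on the way drives ATP synthase, or complex V. Mitochondrial DNA encodes a hydrophobic core of 4 of these complexes and is transcribed as long polycistronic precursors, whereas the remaining subunits are read from nuclear genes, translated in the cytosol and imported. Pigment epithelium and photoreceptors of the eye are rich in mitochondria, and several complex IV subunits exist as tissue-restricted isoforms.

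RefSeq promoter windows (GRCm38.p6) were found for 63 of the 79 nuclear symbols, and the 250 bases before the start were searched on both strands. The site of NRF1, a regulator of respiratory genes (GCGCA, then any base, then GCGC), was present in 11 of these 63 members (17.5%) against 4.23% of the promoters of all 27025 genes, and the ETS letters CCGGAAG also in 11 members against 7.83%. The YY1 site (AAGATG followed directly by GCGG) stood in 1 member (1.59% against 0.359%), the hypoxia element core ACGTG in 12 (19.05% against 18.5%) and CCAAT in 27 (42.9% against 37.5%). Windows are shown for the ubiquitous and restricted isoforms of 1 complex IV subunit (*Cox8a* and *Cox8b*), for the complex III genes *Uqcrh* and *Uqcr10*, and for the complex V gene *Atp5g2*, which the results below turn on. Each is written 5′ to 3′ on the strand of the gene, and capitals mark a match to the NRF1, ETS, YY1 or ACGTG letters on either strand (CCAAT is not marked). A match is only a match of letters.

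Cox8a, chr19:7217617-7217866, minus strand: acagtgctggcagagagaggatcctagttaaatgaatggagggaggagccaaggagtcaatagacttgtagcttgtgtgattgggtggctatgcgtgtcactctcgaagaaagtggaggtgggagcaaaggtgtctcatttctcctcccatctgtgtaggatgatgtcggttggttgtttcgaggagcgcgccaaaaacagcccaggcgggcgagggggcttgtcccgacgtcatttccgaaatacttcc
Cox8b, chr7:140900447-140900696, minus strand: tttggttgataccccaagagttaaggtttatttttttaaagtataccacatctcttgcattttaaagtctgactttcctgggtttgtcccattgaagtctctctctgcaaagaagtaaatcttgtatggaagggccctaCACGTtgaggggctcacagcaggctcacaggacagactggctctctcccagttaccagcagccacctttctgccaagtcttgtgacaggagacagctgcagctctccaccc
Uqcrh, chr4:116075071-116075320, minus strand: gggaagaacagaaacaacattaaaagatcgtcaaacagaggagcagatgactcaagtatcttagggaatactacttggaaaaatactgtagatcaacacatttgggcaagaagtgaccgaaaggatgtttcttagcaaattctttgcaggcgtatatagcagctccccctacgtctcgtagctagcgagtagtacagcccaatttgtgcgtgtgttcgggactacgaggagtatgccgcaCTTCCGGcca
Uqcr10, chr11:4704345-4704594, minus strand: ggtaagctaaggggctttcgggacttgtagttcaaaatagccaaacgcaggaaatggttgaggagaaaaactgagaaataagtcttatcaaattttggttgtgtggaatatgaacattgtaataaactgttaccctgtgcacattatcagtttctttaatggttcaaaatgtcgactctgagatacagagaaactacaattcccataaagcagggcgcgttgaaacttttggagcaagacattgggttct
Atp5g2, chr15:102671048-102671297, minus strand: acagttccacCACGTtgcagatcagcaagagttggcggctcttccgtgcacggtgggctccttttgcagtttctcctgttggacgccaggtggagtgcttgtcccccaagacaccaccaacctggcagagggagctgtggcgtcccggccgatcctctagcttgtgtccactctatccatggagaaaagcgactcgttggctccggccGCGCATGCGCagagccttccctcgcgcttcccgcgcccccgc

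Levels are given as means over cells of UMIs per 10,000 UMIs, for the 34 of the authors' 35 cluster labels that had at least 10 cells in every library. The lymphatic label LEC, with 3, 1 and 12 cells, was left out. Marker genes were checked for the labels named here. Cluster 1 was led by retinal pigment epithelium genes (*Rpe65*, *Rlbp1*, *Ttr*, *Rgr*) and clusters 8 and 9 by melanocyte genes (*Pmel*, *Dct*, *Mlana*, *Tyrp1*). Among limbal and corneal epithelium genes, *Krt14* and *Trp63* were highest in cluster 4 and *Krt12* in cluster 5. However, *Krt5* and *Krt15* were highest in cluster 3 and *Pax6* in cluster 7. Cluster 19 was led by smooth muscle genes and cluster 20 by pericyte genes. Cluster 7 mixed ciliary epithelium (*Pcp4*, *Zic1*), photoreceptor (*Sag*) and haemoglobin transcripts and is called by its number, as are clusters 17 and 18. The paper names cluster 7 ciliary epithelia. Of the other ciliary genes checked, *Wfdc1* was highest in cluster 19 and *Slc4a5* in cluster 1. Of the members, 7 were among the 3467 genes that the authors integrated for clustering (*Atp5g2*, *Cox4i2*, *Cox6b2*, *Cox8b*, *Ndufa4* and *Ndufa4l2* among them), so that their levels by label are not independent of the labels.

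Nuclear members were highest in clusters 1 and 8, the labels led by retinal pigment epithelium and by melanocyte genes. Their summed level in cluster 1 was 450 and 556 in the first and second control pools and 506 in *Angpt1*ΔNC. Cluster 8 came next with 421, 420 and 424, followed by cluster 7 with 349, 349 and 365. TM8, a stromal label, had the lowest mean over the 3 libraries (118, 121 and 144), and cluster 1 exceeded it 3.95-fold. The libraries spread little next to this range, yet only 5 of the neighbours in the order of labels did not overlap between libraries, so most adjacent labels cannot be ranked. The TM labels ran from TM8 to a mean of 172 in TM1. TM6 had 125, 120 and 141, and TM9 123, 127 and 164. The epithelial label cluster 5 had 200, 202 and 198.

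Mitochondrially encoded members spread less over the labels. The highest mean was that of cluster 7 (651, 604 and 663 per 10,000) and the lowest that of cluster 23, a myeloid label (217, 232 and 282), a ratio of 2.62. Cluster 1 had 534, 587 and 724, the smooth muscle label cluster 19 had 434, 527 and 603, and the pericyte label cluster 20 had 386, 484 and 554. No adjacent labels in this order were separated by all 3 libraries. Since cells over 10% were removed, a label near that limit could not show a higher level: in cluster 7, keeping only cells of at most 5% mitochondrial UMIs lowered the control mean from 627 to 152.

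The 2 genomes ranked the labels differently. Across the 34 labels the mitochondrial and nuclear sums correlated at a Pearson r of 0.53, 0.45 and 0.61 in the 3 libraries and a Spearman coefficient of 0.31, 0.29 and 0.50. These points share library and depth, and the mitochondrial sum also correlated with the median UMIs of a label at a Spearman coefficient of −0.41, −0.40 and −0.23. The ratio of nuclear to mitochondrially encoded UMIs was 1.04, 0.809 and 0.736 in cluster 8, and 0.317, 0.256 and 0.277 in TM6. Cluster 8 therefore had the highest mean ratio and TM6 the lowest, but no neighbours in this order were separated by all 3 libraries. Clusters 1 (0.699 to 0.947) and 5 (0.606 to 0.932) overlapped cluster 8, so the nuclear end was not particular to melanocyte-marked cells.

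**Figure D1:**
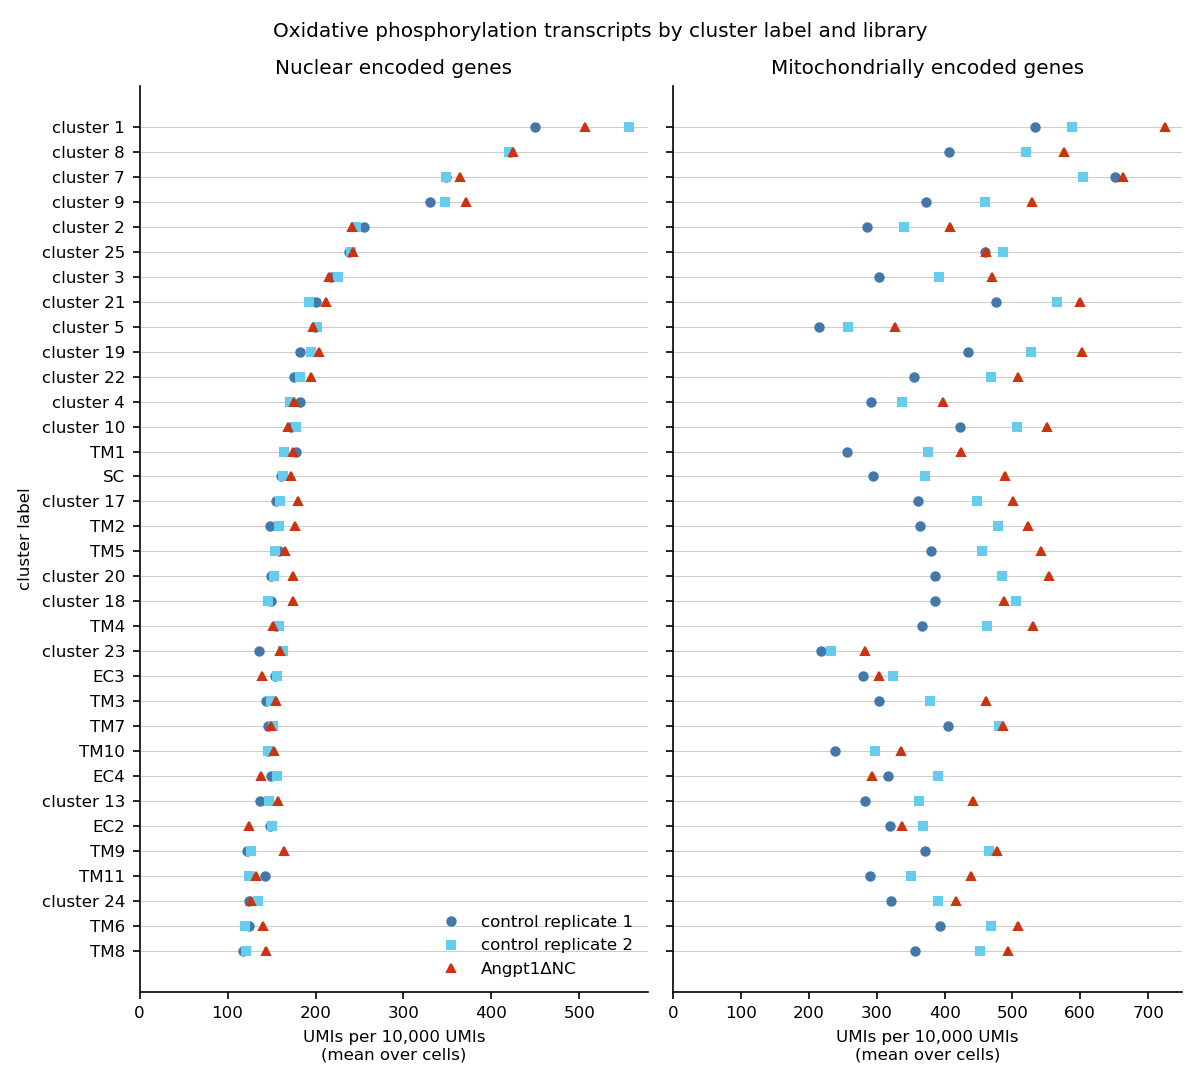
Summed level of nuclear (left panel) and mitochondrially encoded members (right panel), as mean UMIs per 10,000 UMIs, in each of 34 cluster labels ordered by the nuclear level; each point is 1 library (control replicate 1, control replicate 2 or *Angpt1*ΔNC). Nuclear levels ranged from 504 in cluster 1 to 127.5 in TM8 as means over the libraries, and the *Angpt1*ΔNC point lay above both controls in 29 labels for the mitochondrial sum and in 19 for the nuclear sum.

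Each nuclear-encoded complex was highest in cluster 1. Nuclear complex I transcripts, which build the NADH dehydrogenase, averaged 185 per 10,000 in cluster 1 and 36.4 in cluster 24, a myeloid label, a 5.08-fold range. Complex III, the cytochrome bc1 complex, ran from 53.0 in cluster 1 to 14.7 in TM6 (3.61-fold). Complex IV, cytochrome c oxidase, ran from 134 to 32.0 in the same 2 labels (4.17-fold), and ATP synthase from 133 in cluster 1 to 35.7 in TM8 (3.71-fold). Among single nuclear genes, 74 of 80 had a mean over labels of at least 0.2 per 10,000, and 71 of these had a UMI in every label. For those 71 the ratio of the highest to the lowest label had a median of 5.65, from 2.86 for *Ndufa2* to 259 for *Cox6b2*. The other 3, *Cox4i2*, *Cox8b* and *Ndufa4l2*, had at least 1 label without a UMI and were given no ratio. In 44 of the 74 the highest label was cluster 1 and in 20 it was cluster 8. The 6 below this level were *Cox6a2*, *Cox7a1*, *Cox7b2*, *Cox8c*, *Atp5s* and 1 of the 2 *Atp5o* features.

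Of the 71 with a ratio, 12 nuclear members varied more than 10-fold between labels. In complex I these included *Ndufa4* (39.2-fold). Complex III held *Uqcr11* (11-fold), a small subunit with 8.06, 10.3 and 12.7 per 10,000 in cluster 1 and 0.692, 0.897 and 1.23 in TM8. Another small subunit of the same complex, *Uqcrq*, broke the common order. By mean over libraries it was highest in the endothelial label EC2 (10.4, 11.4 and 11.2; SC had 10.3, 9.79 and 9.41) and lowest in TM6 (1.54, 1.58 and 1.44). The hinge protein gene *Uqcrh* was highest in cluster 8 (11.4, 11.8 and 12.4) and lowest in cluster 24 (3.14, 3.47 and 3.32).

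Complex V also held a gene with its own order. *Atp5g2*, 1 of 3 genes for the same c-ring subunit of ATP synthase, was highest in cluster 2 (11.9, 9.98 and 7.79) and lowest in TM8 (0.863, 0.906 and 0.928), with cluster 20 close to TM8 (1.06, 1.06 and 0.691). *Atp5k*, a small membrane subunit, had 5.22, 8.04 and 8.20 in cluster 1 and 0.382, 0.536 and 0.850 in EC3. The peripheral stalk gene *Atp5h* ranged less, from 14.3, 17.6 and 12.01 in cluster 1 to 3.46, 3.82 and 3.51 in cluster 24. In each of these 3 genes every library of the highest label lay above every library of the lowest.

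**Figure D2:**
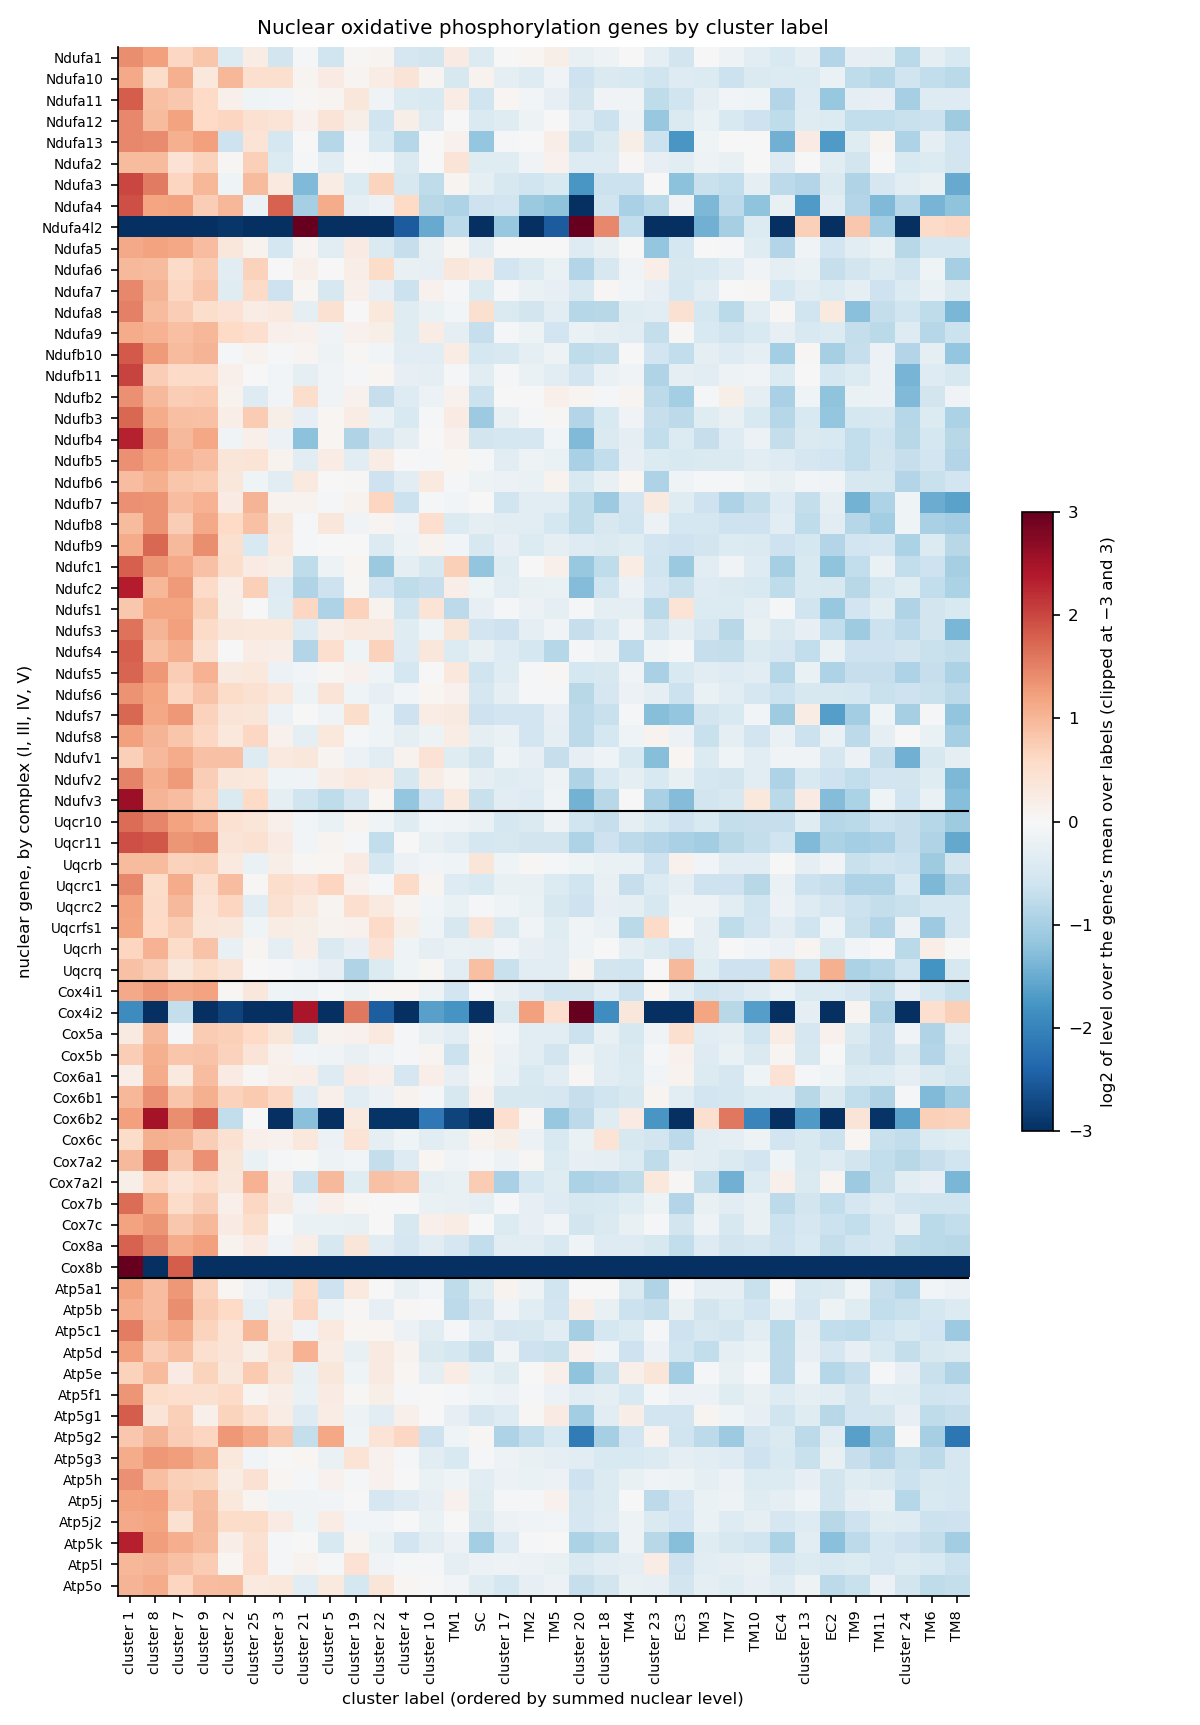
Level of the nuclear members with a mean over labels of at least 0.2 UMIs per 10,000, all but 1 of them (rows, in blocks of complexes I, III, IV and V) in 34 cluster labels (columns), coloured by log2 of the level over the gene's mean over labels and limited to −3 and 3. Most genes were highest in cluster 1 (44 genes) or cluster 8 (20 genes), and a few genes, *Cox6b2* with a 259-fold range among them, differed more between labels.

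Paralogous subunits differed between labels. Shares of UMIs within a pair are compared between labels only, since they are not corrected for transcript length. *Ndufa4l2*, the hypoxia-inducible paralogue of *Ndufa4*, was highest in the pericyte label: in cluster 20 it had 6.20, 6.01 and 5.20 per 10,000 and was detected in 78.3%, 78.1% and 74.3% of cells. *Ndufa4* was at its lowest there, with 0.739, 0.478 and 0.807, against 24.3, 29.0 and 26.1 in cluster 1 and 16.5, 13.04 and 15.1 in cluster 5. *Ndufa4l2* thus made 90.4% (exact 95% interval 88.8 to 91.8), 93.4% (92.0 to 94.5) and 88.4% (85.6 to 90.8) of the UMIs of the pair in cluster 20. In the smooth muscle label cluster 19 its share was 0.271%, 0.213% and 0% (exact upper limit 1.69%), so the mural labels did not share the pattern. Cluster 21 had 45.6%, 43.2% and 70.3%, with the *Angpt1*ΔNC library outside the controls. Outside the mural labels, cluster 18 had 28.6%, 20.04% and 19.05%.

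Cluster 5 was taken for comparison, and *Ndufa4l2* was found there in 0.696%, 1.39% and 0% of 575, 505 and 270 cells. A count of 0 in the last allows a share of up to 1.11%. Median depth was 21528, 18747 and 20189 UMIs in cluster 5 and 4297, 4372 and 3945.5 in cluster 20. When every cell was thinned to 2000 UMIs, 58.5%, 60.1% and 57.3% of cluster 20 cells remained positive, and none of 573, 503 and 269 cells of cluster 5 did (upper limits of the exact 95% interval 0.642%, 0.731% and 1.36%). The intervals cover counting error only. In cluster 20 the pair hence separated from cluster 5 at equal depth and in all 3 libraries. Because cluster 5 cells were deeper, thinning does not equalise the share of free RNA, and the background in shallow cells was not measured. In the other epithelial label, cluster 4, *Ndufa4l2* made 0.294%, 2.07% and 0.281% of the UMIs of the pair.

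*Cox4i2*, the alternative subunit 4 of complex IV known from lung and smooth muscle, was highest in cluster 20. Its levels were 3.11, 2.90 and 2.05 per 10,000 in cluster 20, 2.01, 1.35 and 1.68 in cluster 21 and 1.20, 0.858 and 0.716 in cluster 19. The stromal labels TM2 (0.971, 0.437 and 0.741) and TM3 (0.820, 0.512 and 0.751) overlapped cluster 19, and no UMI was seen in SC or EC2, where 3 positive cells would be 4.76% to 20% of the cells of a library. Its share of the Cox4 pair was 44.6%, 41.0% and 29.7% in cluster 20 and 19.01%, 12.4% and 9.57% in cluster 19. In clusters 4 and 5 this share was at most 0.0735%. *Cox4i2* was detected in 63.3%, 65.2% and 49.1% of cluster 20 cells, and after thinning to 2000 UMIs in 40.2%, 40.7% and 30.7%, while cluster 5 had 0.696%, 0% and 0.741% before thinning and none after. The ubiquitous *Cox4i1* was highest in cluster 8 (16.5, 16.6 and 15.7) and lowest in TM8 (3.71, 4.15 and 4.63).

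*Cox8b*, the isoform of subunit 8 known from heart and skeletal muscle, was a gene of cluster 1. It had 14.2, 27.2 and 24.9 per 10,000 there and was detected in 94.7%, 96.3% and 100% of its 133, 81 and 17 cells. Cluster 7 had 2.28, 2.79 and 2.81, and every other label was below 0.17. Thinned to 2000 UMIs, 79.5%, 82.1% and 100% of cluster 1 remained positive, and again none of cluster 5. *Cox8b* made 28.6%, 38.3% and 35.8% of the Cox8 pair in cluster 1, beside *Cox8a* at 30.5, 38.1 and 40.0 per 10,000. *Cox8a* itself had its lowest mean over libraries in TM8 (5.32, 5.42 and 7.003), which TM6 overlapped (5.88, 5.37 and 6.95). The defining genes of striated muscle summed to 0.0121, 0.123 and 0.00918 per 10,000 in the same label. Of the 2 promoter windows printed above, that of *Cox8b* holds the ACGTG core and that of *Cox8a* does not.

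*Cox6b2*, known as the testis isoform of subunit 6b, was highest in the melanocyte label cluster 8. Its level was 1.64, 1.68 and 2.39 in cluster 8, 0.894, 0.933 and 1.59 in cluster 9 and 1.19, 1.01 and 0.843 in TM7. Clusters 7 (0.794, 0.650 and 1.21) and 1 (0.595, 0.696 and 1.09) came next, against 0.0080, 0.0030 and 0.0111 in cluster 3. It was detected in 73.2%, 70.7% and 86.4% of cluster 8 cells, or 26.2%, 29.1% and 38.2% when thinned, while cluster 5 had 7.13%, 8.51% and 6.30% before thinning. Within the Cox6b pair its share was 30.5%, 26.8% and 27.3% in TM7 and 13.9%, 14.6% and 20.3% in cluster 8, where its partner *Cox6b1* was also highest (10.1, 9.74 and 9.37). TM7 so had the larger share and cluster 8 the higher level. The muscle isoform *Cox7a1* reached 0.236, 0.162 and 0.258 in cluster 7, and the muscle and testis isoforms *Cox6a2*, *Cox7b2* and *Cox8c* had 111, 23 and 11 UMIs in all kept cells.

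**Figure D3:**
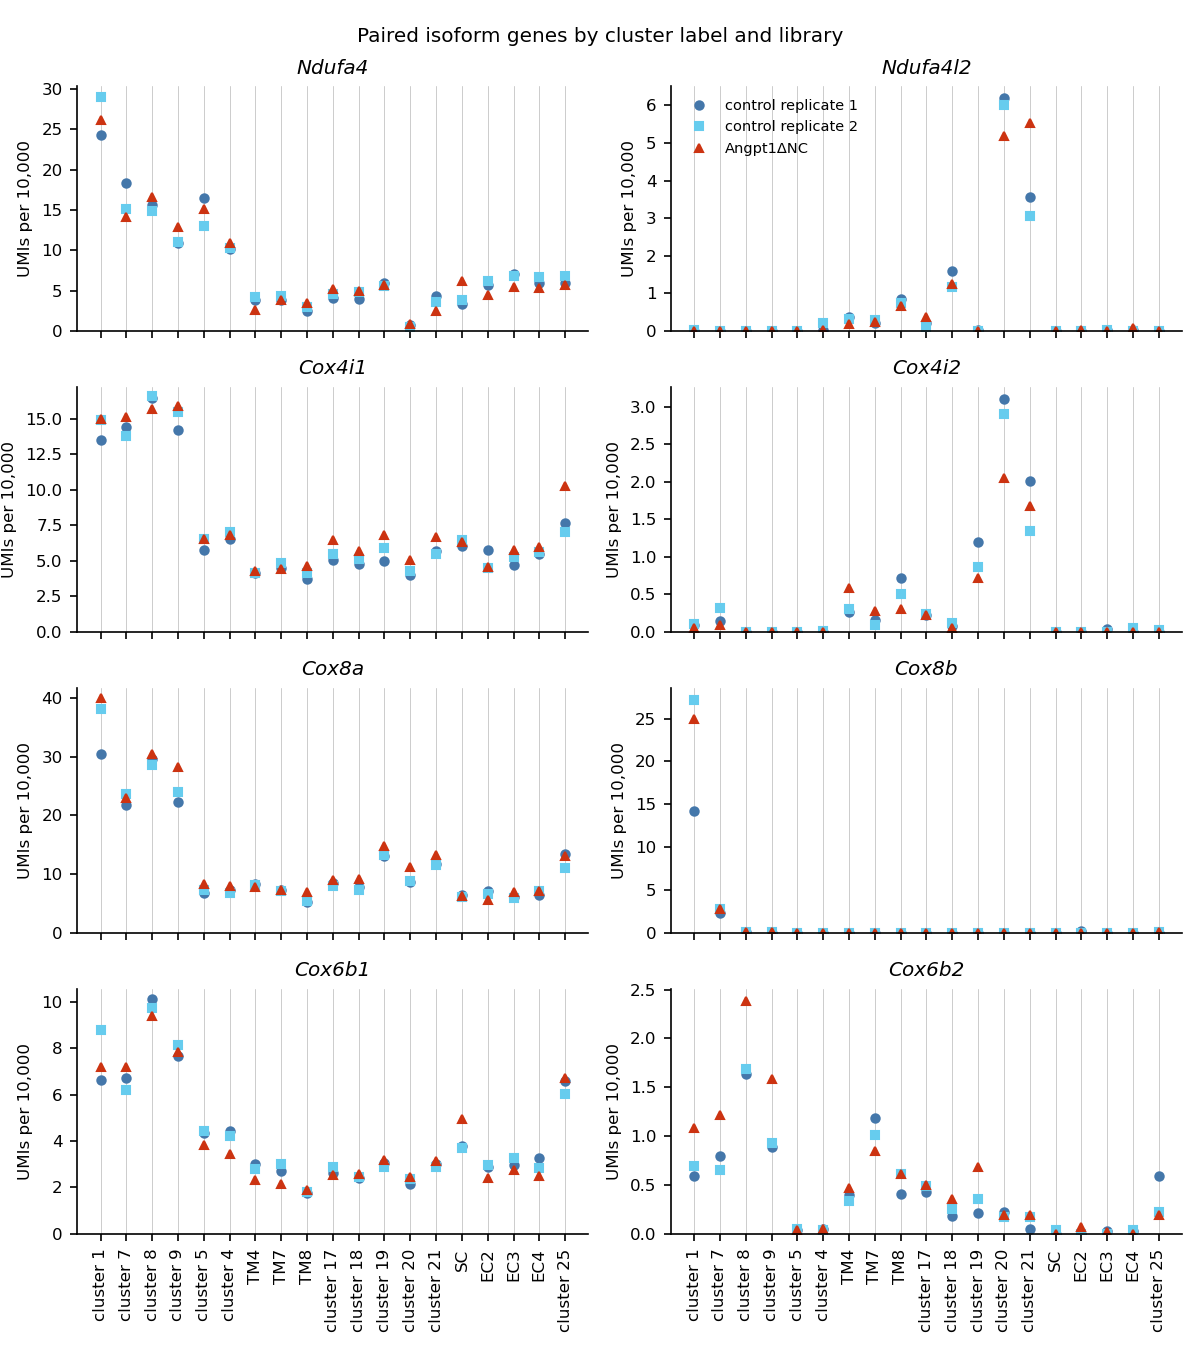
Levels (mean UMIs per 10,000 UMIs) of the paralogue pairs *Ndufa4* and *Ndufa4l2*, *Cox4i1* and *Cox4i2*, *Cox8a* and *Cox8b*, and *Cox6b1* and *Cox6b2* in 19 cluster labels, with 1 point per library. *Ndufa4l2* and *Cox4i2* peaked in cluster 20 (6.20, 6.01 and 5.20; 3.11, 2.90 and 2.05) and *Cox8b* in cluster 1 (14.2, 27.2 and 24.9).

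For the comparison of genotypes, the mitochondrial sum lay above both control libraries in 29 of 34 labels, but control replicate 2 also lay above control replicate 1 in 33 of 34, so that the order of the pools was nearly the same everywhere. Over all kept cells it was 365, 440 and 476 per 10,000. It lay below both controls in EC4 and between them in EC2, EC3 and clusters 18 and 25. The nuclear sum over all kept cells was 206, 199 and 200, and lay above both controls in 19 labels and below both in 8, among them EC2, EC3 and EC4. In EC2 it was 148, 151 and 124, while TM6 is given above. EC2 and TM6 therefore stood on opposite sides of the controls. Cytosolic ribosomal protein genes lay above both controls in 30 labels and dissociation stress genes below both in 23; their part in these levels was not tested.

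The 13 mitochondrial transcripts differed in their order over the libraries. The complex I gene *mt-Nd3* made 0.720%, 0.854% and 1.53% of mitochondrially encoded UMIs, and its level over all kept cells was 2.69, 3.83 and 7.52 per 10,000. The *Angpt1*ΔNC library was above both controls for this gene in 34 of 34 labels and above 2 times the higher control in 19. Other genes of the same heavy-strand transcript were also high in *Angpt1*ΔNC: *mt-Co3*, a complex IV subunit, (47.4, 68.6 and 91.1) and *mt-Atp6*, a complex V subunit, (81.2, 101 and 119) were above both controls in 33 labels each. In contrast *mt-Nd5* (5.29, 5.65 and 4.21) was below both in 28 labels, and *mt-Nd4l* (8.97, 10.0 and 7.31) in 26. The complex IV gene *mt-Co2* (70.5, 78.1 and 71.8) was above both in 10 labels and below both in 12. Among the remaining 7, *mt-Nd1* was above both controls in 32 labels, *mt-Nd4* in 29, *mt-Nd6* in 20, *mt-Cytb* of complex III in 19, *mt-Nd2* in 15, *mt-Co1* in 14 and *mt-Atp8* in 9. By share of mitochondrially encoded UMIs, *mt-Atp6* was the most abundant (22.02%, 22.96% and 25.1%) and *mt-Nd6*, the only member on the light strand, the least (0.0694%, 0.0683% and 0.0674%). *mt-Nd3* and *mt-Nd4l*, which only a tRNA gene separates on 1 polycistronic transcript, were thus on opposite sides of the controls. Since *mt-Atp6* overlaps *mt-Atp8*, and its end overlaps the start of *mt-Co3*, UMIs between them may be split by the counting. The end of *mt-Nd4l* likewise overlaps the start of *mt-Nd4* on the same strand, so the same holds for this pair.

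Counts were then summed per library over 4 classes of labels and tested with edgeR's quasi-likelihood test, at a Benjamini-Hochberg adjusted p under 0.05 over all genes of a class. The classes were stroma (TM1 to TM11, 2803, 3324 and 1946 cells), endothelium (SC, LEC, EC2 to EC4; 295, 327 and 209), limbal and corneal epithelium (clusters 4 and 5; 989, 1012 and 911) and mural cells (clusters 19 to 21; 1036, 1185 and 345). Of these classes stroma and mural cells lie in the lineage that *Wnt1*-Cre can reach. Values below are CPM (counts scaled to the library total) in control replicate 1, control replicate 2 and *Angpt1*ΔNC, and fold changes are *Angpt1*ΔNC over control. In a bulk sum, fewer cells of a label and less RNA per cell cannot be told apart. The make-up of stroma and endothelium also differed between pools. TM7 held 667, 739 and 174 cells and TM8 591, 612 and 155, while TM9 held 204, 298 and 327. In endothelium SC held 46, 63 and 15 cells and LEC 3, 1 and 12.

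In stroma, 3 of the 77 nuclear members tested were higher in *Angpt1*ΔNC and none was lower (2 were lower at an unadjusted p under 0.05, and DESeq2 likewise called 3 higher and 0 lower), where 3.46% of all 13942 genes were called higher and 5.52% lower. *Ndufa3* and *Uqcr10* were among them. The accessory complex I gene *Ndufa3* had 34.99, 35.9 and 59.3 CPM (log2 fold change 0.74, edgeR adjusted p = 0.0117). *Uqcr10*, a small subunit of complex III, had 143, 158 and 247 CPM (0.72, edgeR adjusted p = 0.0207). Over all 77 nuclear members tested, CPM in *Angpt1*ΔNC lay above both controls in 48 and below both in 20, against 40% and 41.3% of all genes. The median log2 fold change over the 77 was 0.12, beside −0.01 for all genes tested. Of the 13 mitochondrial members only *mt-Nd3* was called (254, 404 and 795 CPM, log2 fold change 1.27, edgeR adjusted p = 0.0131). This call was lost with DESeq2 (adjusted p = 0.243), which called no mitochondrial member. *mt-Co3* had 4008, 6678 and 8714 CPM, a log2 fold change of 0.71 and an edgeR adjusted p of 0.121.

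In mural cells, 17 of 75 nuclear members rose (9.12% of all 11606 genes were called higher) and 3 fell (7.23% called lower). By complex the higher and lower calls were 6 and 2 of 37 in complex I, 3 and 0 of 8 in complex III, 4 and 0 of 14 in complex IV and 4 and 1 of 16 in complex V. *Uqcr10* rose again (154, 169 and 340 CPM, log2 fold change 1.07, edgeR adjusted p = 6.28e-05). *Atp5g2* fell from 279 and 279 to 158 CPM (−0.82, edgeR adjusted p = 0.00126), and *Ndufa4* from 360 and 347 to 245 (−0.53, edgeR adjusted p = 0.0181). The third gene that fell was *Ndufs7*, a core complex I subunit (−0.53, edgeR adjusted p = 0.0419), a call also lost with RLE size factors (0.0520), with cells of 3000 to 12000 UMIs (0.0710) and with DESeq2 (0.304). Subunits of the F1 catalytic part and the oxidase, such as *Atp5b*, *Atp5d*, *Cox4i1*, *Cox5b* and *Cox7c*, were among those that rose. The median over nuclear members was 0.17 beside −0.05 over all genes, and −0.02 beside −0.24 when libraries were scaled by total UMIs only. In *Angpt1*ΔNC 52 of the 75 lay above both controls and 16 below both, against 40.9% and 45.7% of all genes.

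The make-up of the mural class differed between pools. Cluster 19 held 387, 499 and 54 cells, and cluster 20 held 461, 512 and 222. *Ndufa4l2*, the cluster 20 gene, had 302, 260 and 488 CPM over the class (0.80, edgeR adjusted p = 0.000898), but with equal cells per label its log2 fold change was 0.05 (edgeR adjusted p = 0.905), and within cluster 20 the level was lower in *Angpt1*ΔNC than in both controls (6.20, 6.01 and 5.20). The falls of *Ndufa4* (−0.13, edgeR adjusted p = 0.731) and *Ndufs7* (−0.27, 0.482) were also not called with equal cells per label, whereas that of *Atp5g2* (−0.56, 0.0283) and the rise of *Uqcr10* (1.03, 1.38e-07) were. Within cluster 19 *Ndufa4* had 5.91, 5.62 and 5.73 per 10,000. In all, 10 nuclear members were called with equal cells per label in place of 20. DESeq2 called 7. Shares of all genes called under these settings are not given here, so the smaller numbers are not read as particular to the members. Of the 13 mitochondrial members 7 rose in mural cells, with *mt-Nd3* at 269, 398 and 1008 CPM (1.59, edgeR adjusted p = 7.13e-06), *mt-Nd6* at a log2 fold change of 1.00 and *mt-Co3* at 0.86, and DESeq2 called 4.

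In endothelium, which *Wnt1*-Cre does not reach, 2 of 71 nuclear members rose and 4 fell, where 8.12% and 4.82% of all 9660 genes were called higher and lower. *Uqcr10* (147, 144 and 221 CPM, log2 fold change 0.60, edgeR adjusted p = 0.00758) and *Atp5k* (57.8, 59.2 and 95.9, 0.71, edgeR adjusted p = 0.00782) were higher. *Atp5g1* and *Atp5g2*, which encode the same c-ring protein, were both lower, with 287, 270 and 178 CPM (−0.65, edgeR adjusted p = 0.00579) and 381, 338 and 235 CPM (−0.61, edgeR adjusted p = 0.00957). The complex IV gene *Cox5a* (−0.50) and the complex I gene *Ndufs7* (−0.65) also fell. DESeq2 called none of these 6, a range of 3000 to 12000 UMIs per cell left 3 calls, and scaling by total UMIs gave 14. Above and below both controls stood 31 members each, against 39.7% and 41.4% of all genes, and the median was 0.00. Among mitochondrial members *mt-Nd3* (223, 306 and 564 CPM, 1.09, edgeR adjusted p = 6.68e-06), *mt-Co3* (0.52) and *mt-Nd1* (0.46) rose, and DESeq2 called 1 of them.

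In the limbal and corneal epithelium edgeR called none of 75 nuclear members, while 10 had an unadjusted p under 0.05 and DESeq2 called none either. Without a filter on low counts edgeR called 4. Of all 12341 genes 2.81% were called higher and 2.91% lower. The lowest adjusted p was that of *Uqcr10* (0.0945), and the members stood above both controls in 35 cases and below both in 27, against 40.1% and 40.6% of all genes. The mitochondrial members that rose were *mt-Nd3* (140, 202 and 525 CPM, log2 fold change 1.62, edgeR adjusted p = 0.00668) and *mt-Nd1* (609, 749 and 1219, 0.84, edgeR adjusted p = 0.0414). The *mt-Nd1* call was lost under 4 of the alternatives. *mt-Nd3* was so called in all 4 classes, in lineages with and without Cre.

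**Figure D4:**
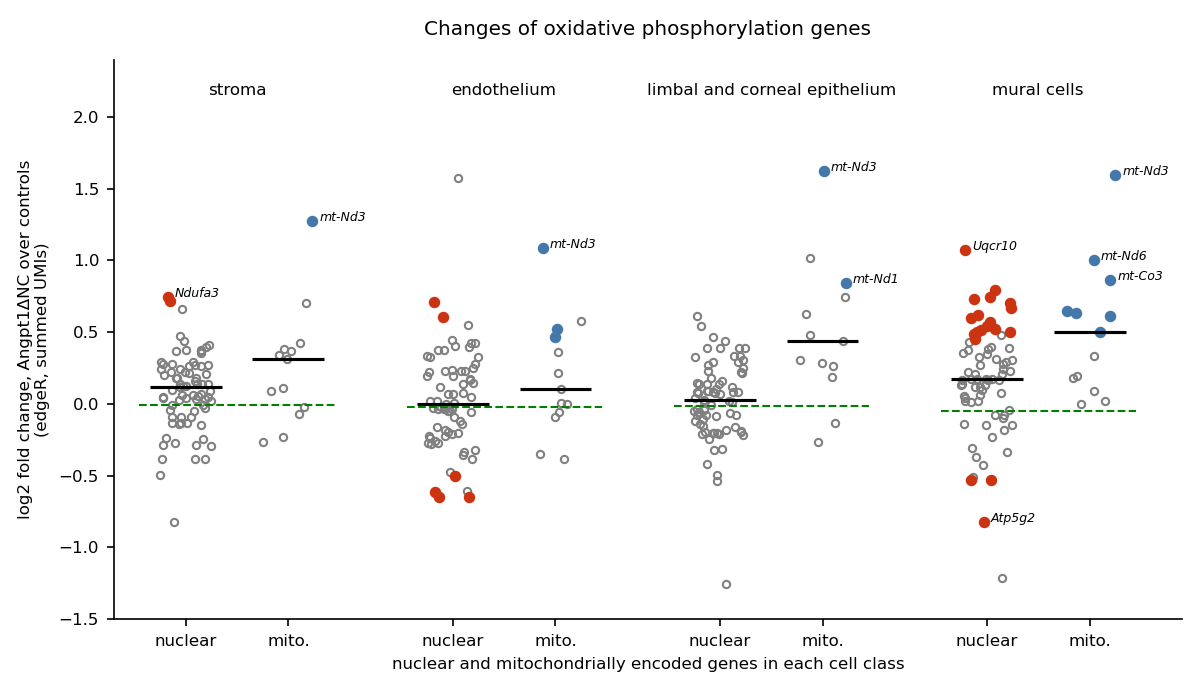
Log2 fold change of *Angpt1*ΔNC over control for the members, all but 1, in 4 cell classes, nuclear and mitochondrially encoded members apart; filled points passed an edgeR adjusted p of 0.05, black bars are the median of all members tested and green dashed lines that of all genes tested. The nuclear median lay at 0.12 in stroma and 0.17 in mural cells, and *mt-Nd3* reached 1.09 to 1.62 across the classes.

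Whether a fold change differed between classes was tested against stroma, in a fit that was chosen after the data were seen. Of the members 1 of 89, 1 of 90 and 6 of 89 passed for endothelium, epithelium and mural cells, and of all genes 4.51%, 2.4% and 7.77%. In mural cells the fold change of *Ndufa4* was lower than in stroma by 0.63 on the log2 scale (edgeR adjusted p = 0.0180) and that of *Atp5d* higher by 0.73 (0.00408). These differences were not refitted with equal cells per label, under which the fold change of *Ndufa4* in mural cells was −0.13. *Uqcr10* and *mt-Nd3* did not pass, with adjusted p between 0.238 and 0.839.

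*Uqcr10* was high in nearly all labels of the *Angpt1*ΔNC library. Its level in *Angpt1*ΔNC was above both controls in 33 of 34 labels, with EC2 (1.62, 1.18 and 1.36) the exception, and it exceeded 2 times the higher control in TM6, TM9 and clusters 19 and 20. In cluster 20 it was 1.04, 1.16 and 2.82, and in SC 1.46, 1.92 and 3.21. The gene lies at chr11:4701973-4704342 on the minus strand, 1.72 Mb from *H2afv* (the older symbol of *H2az2*), the locus for which the *Wnt1*-Cre line is named, and only the *Angpt1*ΔNC pool carried this Cre. An effect of the Cre-linked segment, of *Angpt1* and of the pool cannot be told apart. Of 31 genes tested within 1 Mb of *Uqcr10*, 2 were higher in stroma. *Ndufa2*, *Ndufa5* and *Ndufa3*, accessory genes of complex I, were above both controls in 31, 31 and 28 labels, and *Cox5a* and *Atp5g2* were below both in 33 and 31. Such runs over labels come from the same 3 libraries and are not separate evidence.

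**Figure D5:**
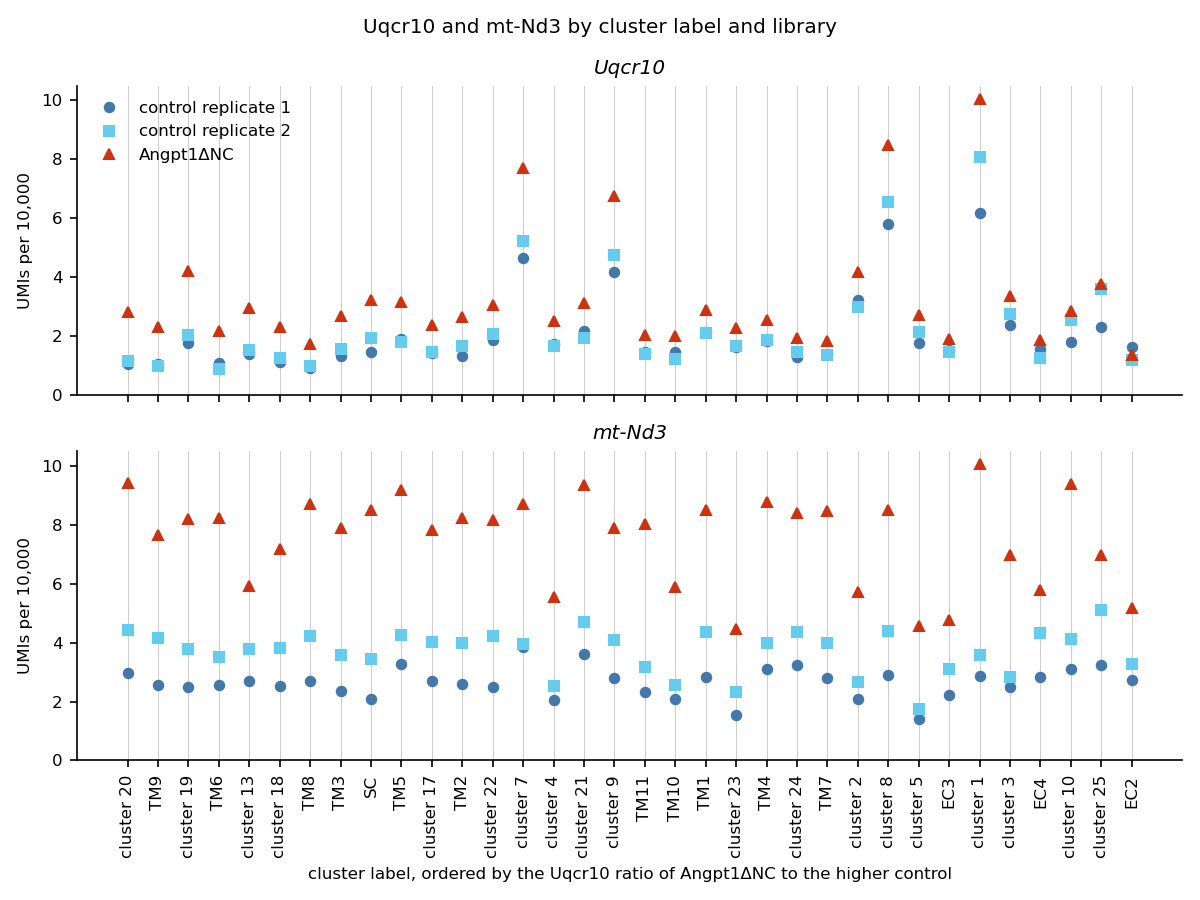
Level (mean UMIs per 10,000 UMIs) of *Uqcr10* and *mt-Nd3* in each of 34 cluster labels, with 1 point per library, ordered by the ratio of *Angpt1*ΔNC to the higher control for *Uqcr10*. The *Angpt1*ΔNC point lay above both controls in 33 labels for *Uqcr10* and in 34 for *mt-Nd3*.

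Other genes of mitochondrial energy metabolism were read from lists of the pathway. Over all genes tested, 3.46% were called higher and 5.52% lower in stroma, and 8.12% and 4.82% in endothelium. In epithelium these shares were 2.81% and 2.91%, and in mural cells 9.12% and 7.23%. Complex II, the succinate dehydrogenase that is encoded in the nucleus only, had 0 edgeR calls among its 4 genes in each class (0, 2, 1 and 0 genes at an unadjusted p under 0.05 in stroma, endothelium, epithelium and mural cells). Its median log2 fold change was −0.12 in stroma and −0.41 in endothelium. Assembly factors held 2 higher and 2 lower of 42 in stroma, with the 2 that fell at large changes: *Timmdc1*, needed for complex I assembly, went from 232 and 247 to 42 UMIs (−2.11, edgeR adjusted p = 0.00136), and *Cmc2*, a factor for complex IV, from 695 and 720 to 191 (−1.49, 0.00141). *Ndufaf7* (1.15) and *Pet100* (0.71) rose. In endothelium 1 assembly factor of 41 rose and 1 fell, in epithelium 3 of 42 fell, and in mural cells 2 of 41 rose and 3 fell. Those that fell included *Timmdc1* in epithelium and mural cells and *Cmc2* in endothelium and mural cells, so these falls were not confined to stroma. *Pet100* rose in endothelium and mural cells as well. Among 16 regulators of mitochondrial biogenesis, only *Ppargc1a*, the coactivator PGC-1α, was called in stroma, with 9.52, 12.01 and 4.95 CPM (−1.12, edgeR adjusted p = 0.0234). Of the tricarboxylic acid cycle genes 1 of 13 was higher in stroma (*Ogdh*, 0.61) and of the glycolysis genes 1 of 17 (the glucose transporter *Slc2a1*, 0.64). *Ogdh* was also called higher in endothelium, epithelium and mural cells, and *Slc2a1* in endothelium. Glycolysis genes that rose numbered 3 of 15 in endothelium and 2 of 17 in mural cells, where 2 others fell. Of the mitochondrial ribosomal protein genes 1 of 78 rose and 1 fell in stroma, and 2 of 77 rose and 5 fell in endothelium. In mural cells the 7 carrier and supernumerary genes held 3 that rose, *Higd1b*, *Usmg5* and *Cycs*, and 54 of 98 cytosolic ribosomal protein genes rose as well, with a median of 0.53. The dissociation stress genes included 6 of 15 that fell in mural cells and 6 of 15 in epithelium, but 4 that rose and 2 that fell in endothelium.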

How the data were processed

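Droplet libraries of iridocorneal angle cells came from 2 control pools and 1 *Angpt1*ΔNC pool. The authors made and deposited raw UMI counts per gene and called cell with Cell Ranger (2.1.1 in the submitters' processing notes, 3.0.2 in the matrix headers) on mm10, removed cells over 10% mitochondrial UMIs, and clustered with Seurat 3.1.3. The read end of the kit was not given in the sources used here. From the 2 deposited tables of integrated natural log values only the cluster labels were used, since integration alters levels. Predicted doublets had been removed by the authors with scDblFinder before clustering, and no further caller was run.

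Members and lists were chosen with earlier results of these data known. Levels average UMIs per 10,000 UMIs over cells, with exact 95% intervals for shares (SciPy 1.17.1, Python 3.11.15, NumPy 2.4.6, pandas 2.3.3, Matplotlib 3.10.9). A share of 0 was given the limit of 3 counts. Thinning to 2000 UMIs left out 383, 304 and 197 shallower cells. Kept libraries held 76981606, 80346829 and 66484181 UMIs.

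Counts summed per library and class were tested with edgeR 4.0.16 in R 4.3.3 (low genes removed by filterByExpr, TMM scaling, the quasi-likelihood test, adjustment by Benjamini-Hochberg with calls under 0.05, 1 residual degree of freedom), which takes the spread of the single *Angpt1*ΔNC pool to be that of the control pools. Scripts were tested on simulated data. Alternatives were DESeq2 1.42.0, other size factors, no filter, nuclear genes only, male-typed cells, a UMI window, equal cells per label and each control left out in turn, without a test. Genes named were all mitochondrial members, the isoform pairs, the most abundant and the 2 most variable nuclear members per complex, up to 5 called members per class and up to 2 called genes per list; others were named after their values were seen. Results for 1 member are not reported here. Positions are from GENCODE (GRCm38) and promoters from RefSeq (GRCm38.p6).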

Additional observations from a re-analysis of the deposited data

Results flagged for a closer look

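Of the deep called cells (at least 1000 UMIs and 200 genes), 12.04% in *Angpt1*ΔNC were over the mitochondrial limit of 10% and were not kept, against 5.39% and 5.68% in the controls (993 of 8247, 570 of 10578 and 683 of 12032 cells). These cells enter no level or test of the report.

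The following members had a fold change that differed between classes in an edgeR fit with class by genotype terms, which was chosen after the data were seen. The log2 fold change of mural cells minus that of stroma was past the threshold for *Ndufa4* (−0.63, edgeR adjusted p = 0.0180), *Atp5d* (0.73, 0.00408), *Ndufa4l2* (0.62, 0.0177), *Uqcrq* (0.61, 0.00949) and *Atp5g2* (−0.50, 0.0470). Mural make-up differed between the pools. With equal cells per label the log2 fold change in mural cells was 0.05 for *Ndufa4l2* (edgeR adjusted p = 0.905) and −0.13 for *Ndufa4* (0.731), so neither was called, and the differences from stroma were not refitted with equal cells.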

How the results depend on the processing

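Numbers of nuclear members called moved with the settings as follows. Shares of all genes called are given for the main fit only, so these moves are not read as particular to the members. In stroma 3 calls became 5 without a filter on low counts, and 6 in male-typed cells or with equal cells per label. In endothelium 6 became 14 with total UMIs only (2 higher, 12 lower), 3 in cells of 3000 to 12000 UMIs and 0 with DESeq2. In epithelium 0 became 4 without a filter, and in mural cells 20 became 10 with equal cells per label and 7 with DESeq2. The mitochondrial members called in stroma went from 1 to 2 (total UMIs only, male-typed cells), 3 (no filter), 5 (equal cells per label) or 0 (DESeq2), in endothelium from 3 to 1 (DESeq2), in epithelium from 2 to 5 (no filter) or 1 (total UMIs only, male-typed cells, 3000 to 12000 UMIs, equal cells per label) and in mural cells from 7 to 4 (DESeq2). The median log2 fold change of nuclear members was 0.00 in endothelium and became −0.17 (total UMIs only), −0.031 (no filter) and 0.090 (3000 to 12000 UMIs). In epithelium it was 0.02 and became −0.078 (total UMIs only), −0.063 (male-typed cells) and 0.13 (3000 to 12000 UMIs), and in mural cells it was 0.17 and became 0.20 (RLE size factors), −0.021 (total UMIs only), 0.12 (no filter) and 0.11 (male-typed cells). With total UMIs only, the median over all genes was itself −0.19, −0.12 and −0.24 in these 3 classes. Leaving out either control gave medians of 0.07 to 0.15 in stroma, −0.02 to 0.02 in endothelium, −0.00 to 0.08 in epithelium and 0.19 to 0.23 in mural cells. The cause of these shifts was not tested.

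The mitochondrial level of cluster 7 (control mean 627) was 762 from pooled UMIs, 750 in cells of 3000 to 12000 UMIs and 152 in cells of at most 5% mitochondrial UMIs, and the nuclear level of cluster 8 (420) was 425, 414 and 415 under the same settings and 441 with nuclear genes as the total. Thinning to 2000 UMIs lowered the control mean of positive cells to 59.3% for *Ndufa4l2*, 40.4% for *Cox4i2*, 80.8% for *Cox8b* and 27.6% for *Cox6b2*, and *Ndufa4l2* in cluster 20 was 6.49 per 10,000 from pooled UMIs. Of the comparisons of a single gene with an alternative setting, 142 kept the direction and 13 lost the call. The 142 also kept the call where a test was run, and the fits that left out a control had no test. These comparisons covered up to 5 called members per class, and none of those changed direction under the settings run. The other called members were not followed in this way. The nuclear medians of endothelium, epithelium and mural cells changed sign as given above.

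No paired analysis was run, since the labels give no pairing of the lone *Angpt1*ΔNC library with a control. The design has 1 residual degree of freedom, and genotype, pool and sex make-up of the pool cannot be told apart. At a median of 6329.5 to 7444 UMIs, genes near 1 UMI per 10,000 go undetected in many cells.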

Other observations

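Genes of other functions near a member were read for stroma. Within 1 Mb of *Uqcr10*, *Pes1* and *Lif* were called higher, and within 1 Mb of *Ndufa3*, *Cnot3* was higher and 1 gene lower.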
